A study of Homo sapiens with 40 samples.

Results

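The DAXX and HIRA single knockdowns of SW480 cells were compared with the HIRA+DAXX double knockdown by asking what became, in the double knockdown, of each CENP-A site of the single ones. The DAXX list held 952 sites and the HIRA list 848, together 1800 of the 5748 peaks in the 6 deposited lists. Of these, 759 DAXX sites and 641 HIRA sites were ectopic, which here means that they shared no base with a centromere band of hg19. A site was called kept when it shared at least 1 base with exactly 1 HIRA+DAXX peak, split when it shared bases with 2 or more of them, and lost when it shared none. Most ectopic sites of either single knockdown lay near a centromere or in 8q24, and the remainder were scattered along the chromosome arms.

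The cells, SW480, are a human line established from a colon cancer, and they had been given siRNA for 72 h against DAXX, against HIRA, or against both, while the control cells are called Untreated in the labels and are described with a control siRNA in the methods of the study. CENP-A nucleosomes were precipitated with ACA, a human serum against centromere proteins, from native chromatin cut with MNase. The series holds 40 libraries, 20 ChIP and 20 input, with 4 ChIP libraries each for control, DAXX, HIRA and HJURP knockdown and 2 each for HIRA+DAXX and HIRA+HJURP. Each condition was deposited as 1 merged list of peak positions with no score, read count or replicate, so no value below has a replicate error and no difference could be tested. Peak lists hold no expression values, so neither the cell line nor the loss of the targeted proteins could be checked in them. The number of libraries, the sequencing depth and the double depletion cannot be told apart in the HIRA+DAXX list. Its ectopic peaks had a median width of 285 bp, against 902 bp in DAXX and 750 bp in HIRA.

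CENP-A is the histone H3 variant that marks centromeres, where the chaperone HJURP deposits it on alpha satellite DNA, a tandem repeat of short units. HIRA and DAXX are chaperones of the histone variant H3.3. HIRA places H3.3 at genes, promoters and other sites of high nucleosome turnover, and DAXX, with its partner ATRX, places it at telomeres, repeats and heterochromatin. Satellites II and III, the other abundant satellites beside human centromeres, are built from diverged copies of the pentamer GGAAT.

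The widest kept, split and lost sites near the centromeres are shown by their central 300 bases, read from the forward strand of the GRCh37 reference (the hg19 chromosomes). Capitals mark bases inside a HIRA+DAXX peak.
Widest kept site, centre (chr7:61870543-61870842): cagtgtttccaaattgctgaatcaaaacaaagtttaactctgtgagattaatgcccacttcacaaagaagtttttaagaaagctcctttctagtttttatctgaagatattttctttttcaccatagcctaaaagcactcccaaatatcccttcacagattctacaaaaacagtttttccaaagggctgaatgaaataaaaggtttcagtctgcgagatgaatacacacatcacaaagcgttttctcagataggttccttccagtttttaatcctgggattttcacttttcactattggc
Widest kept site, around its only retained piece (chr7:61868532-61868831): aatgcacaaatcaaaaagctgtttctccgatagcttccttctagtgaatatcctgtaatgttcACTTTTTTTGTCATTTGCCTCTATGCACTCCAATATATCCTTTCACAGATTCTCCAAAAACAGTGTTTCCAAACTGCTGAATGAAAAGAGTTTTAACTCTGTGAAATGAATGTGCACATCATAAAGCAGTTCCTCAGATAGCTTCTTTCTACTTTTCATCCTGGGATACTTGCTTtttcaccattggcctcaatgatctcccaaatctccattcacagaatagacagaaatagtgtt
Widest split site, centre (chr7:61882806-61883105): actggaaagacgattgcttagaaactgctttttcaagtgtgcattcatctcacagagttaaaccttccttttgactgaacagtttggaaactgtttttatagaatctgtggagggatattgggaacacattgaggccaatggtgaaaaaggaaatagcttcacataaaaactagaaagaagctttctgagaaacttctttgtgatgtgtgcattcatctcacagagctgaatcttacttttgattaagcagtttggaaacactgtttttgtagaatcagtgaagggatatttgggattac
Widest lost site, centre (chr16:32552794-32553093): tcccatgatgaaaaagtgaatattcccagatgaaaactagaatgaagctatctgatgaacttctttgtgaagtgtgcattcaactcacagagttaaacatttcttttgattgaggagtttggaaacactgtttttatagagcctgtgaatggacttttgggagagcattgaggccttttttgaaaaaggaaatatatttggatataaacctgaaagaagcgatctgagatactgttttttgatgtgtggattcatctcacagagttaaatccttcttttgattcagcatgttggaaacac
The 3 central stretches held no base of a double knockdown peak, although only the last of the sites was lost. The widest kept site was a HIRA site of 6115 bp of which the double knockdown held 1 piece of 175 bp, and the widest split site was a DAXX site of 30658 bp that was left in 7 pieces. The kept site lay wholly within the split site, and its piece was among those 7 pieces. These examples of kept and split therefore share the same DNA and do not compare the classes. All 3 sites were AT-rich DNA that matched itself when shifted by the length of 1 alpha satellite unit. The widest kept site did so at 44.6% of its bases, the widest split site at 41.5%, and the widest lost site, of 18703 bp, at 40.6%.

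In the double knockdown, 205 of the 759 ectopic DAXX sites were kept (27.0%), 135 were split (17.8%) and 419 were lost (55.2%, 95% Wilson interval 51.6% to 58.7%). Of the 641 ectopic HIRA sites, 236 were kept (36.8%), 120 were split (18.7%) and 285 were lost (44.5%, 40.7% to 48.3%). These lost shares of 55.2% and 44.5% are the background against which every group of sites below is read. The intervals cover the counting of sites only, and neighbouring sites of 1 domain are not independent of each other. Both sets of sites were sorted in the same HIRA+DAXX list, and 389 DAXX sites (51.3%) shared bases with 467 HIRA sites (72.9%), so the DAXX and HIRA values are not 2 separate measurements of the double knockdown.

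Sites that stayed were also trimmed. The DAXX sites covered 1123.7 kb, of which 268.6 kb (23.9%) lay in a HIRA+DAXX peak. Of the 855.2 kb that did not, 420.6 kb (49.2%) belonged to lost sites, 289.8 kb (33.9%) to split sites and 144.8 kb (16.9%) to kept sites. HIRA sites covered 706.9 kb and retained 249.9 kb (35.3%), and of the 457.0 kb outside double knockdown peaks, 212.4 kb (46.5%) belonged to lost sites, 128.9 kb (28.2%) to split sites and 115.7 kb (25.3%) to kept sites. In both lists, slightly more of the missing coverage lay in sites that the double knockdown still marked than in lost ones. This narrow order holds for the peaks as deposited and was not recomputed for other settings. With HIRA+DAXX peaks within 1000 bp joined, retained bases rose to 32.6% for DAXX and 47.7% for HIRA, while lost shares stayed at 54.9% and 43.8%. Marked sites then missed fewer bases. Of the 301.2 kb of ectopic HIRA+DAXX peaks, 32.6 kb (10.8%) lay outside all DAXX sites and 51.3 kb (17.0%) outside all HIRA sites.

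**Figure D1:**
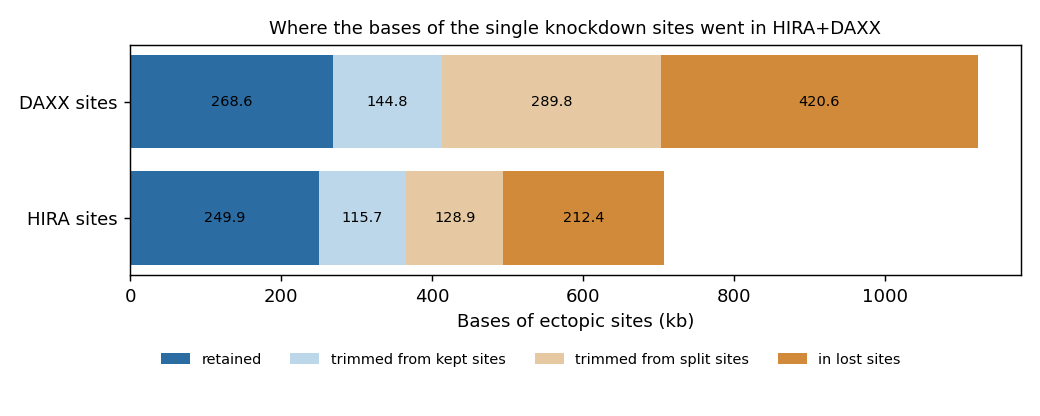
Bases of the ectopic sites of each single knockdown list, in kb, divided into bases inside a HIRA+DAXX peak (retained), bases trimmed from kept and from split sites, and bases of lost sites. Retained bases are 268.6 kb of 1123.7 kb for DAXX and 249.9 kb of 706.9 kb for HIRA. With the peaks as deposited, trimmed bases together (434.5 kb and 244.6 kb) exceed those of lost sites in both.

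Kept sites were in most cases covered only in part. The median kept DAXX site was 829 bp wide and 37.6% of it was covered, and the median kept HIRA site was 612.5 bp wide and 49.7% covered. At least 50% of the bases were covered in 75 of 205 kept DAXX sites (36.6%) and 116 of 236 kept HIRA sites (49.2%). Only 7 and 11 of them were covered from end to end. Split sites were the wide ones, with a median of 2342 bp in DAXX and 1782.5 bp in HIRA, and their pieces lay close together. The gaps between neighbouring pieces had a median of 246 bp in DAXX and 193.5 bp in HIRA, and 87.0% and 96.5% of the gaps were no longer than 1000 bp. A pair of pieces was the commonest outcome, at 80 of 135 split DAXX sites and 68 of 120 split HIRA sites, and the largest numbers were 18 and 11 pieces. Width went with the class. None of the sites up to 500 bp was split, whereas 36 of 41 DAXX sites and 16 of 19 HIRA sites over 4000 bp were. Beyond that, loss fell with width. It went from 104 of 149 DAXX sites (69.8%) of 251 to 500 bp to 3 of 41 (7.32%) over 4000 bp. Since 1 shared base was enough, a wider site had more bases that could meet 1 or more peaks. These orders are therefore partly built into the rule. Retained bases of DAXX sites were 33.0% at 1 to 250 bp, 17.2% at 251 to 500 bp and 31.3% over 4000 bp. For HIRA sites they were 32.0% at 1 to 250 bp and 48.7% over 4000 bp. Lost sites often had a double knockdown peak in their surroundings, at a median distance of 4.19 kb for DAXX and 5.02 kb for HIRA.

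Where a site lay went with its fate in the double knockdown, and the DAXX and HIRA sites differed most at 8q24. This band holds the MYC oncogene and a gene desert rich in long noncoding RNA genes. Of the 389 DAXX sites there, 268 were lost (68.9%, 64.1% to 73.3%), and of the 156 HIRA sites 53 were (34.0%, 27.0% to 41.7%). Within 5 Mb of a centromere gap, the run of unknown bases that stands for the centromere in the reference, 98 of 291 DAXX sites (33.7%) and 144 of 370 HIRA sites (38.9%) were lost. Elsewhere on the arms the lost share was 53 of 79 for DAXX (67.1%, 56.1% to 76.4%) and 88 of 115 for HIRA (76.5%, 68.0% to 83.3%). Sites in a centromere band, which are not ectopic and are given only for comparison, were lost at 75 of 193 (38.9%) for DAXX and 76 of 207 (36.7%) for HIRA. Pericentromeric sites thus lay below the background in both lists, close to the sites inside the centromere bands, while arm sites lay above it in both and 8q24 lay above it for DAXX and below it for HIRA. The 8q24 positions depended on how sites were counted. When a site needed 50% of its bases in double knockdown peaks, 71.2% of HIRA sites at 8q24 were lost, against 70.0% of all HIRA sites, and when single knockdown peaks within 10000 bp were joined, 43.2% of DAXX sites at 8q24 were lost, against 47.0% of all DAXX sites.

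**Figure D2:**
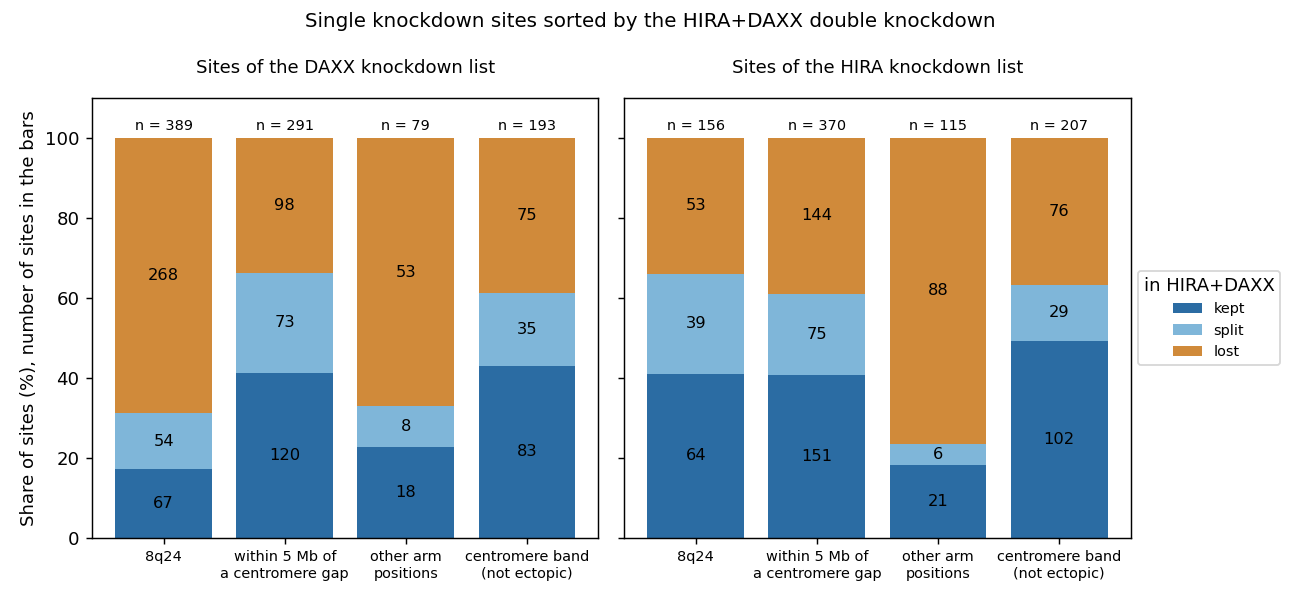
Share of the sites of each single knockdown list that were kept, split or lost in HIRA+DAXX, in %, by location, with the number of sites in each bar. The lost share is 68.9% for DAXX and 34.0% for HIRA at 8q24, 33.7% and 38.9% within 5 Mb of a centromere gap, and 67.1% and 76.5% at other arm positions.

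The difference at 8q24 went with how many sites the other single knockdown shared. Sites in 1 single knockdown alone were mostly lost, at 317 of 370 for DAXX (85.7%) and 150 of 174 for HIRA (86.2%), and sites in both were lost at 102 of 389 (26.2%) and 135 of 467 (28.9%). Only 130 of the 389 DAXX sites at 8q24 were also in HIRA, but 147 of the 156 HIRA sites there were also in DAXX. Among these shared sites the lost share at 8q24 was 39 of 130 (30.0%, 22.8% to 38.4%) for DAXX and 45 of 147 (30.6%, 23.7% to 38.5%) for HIRA. Pericentromeric shared sites were lost at 55 of 230 (23.9%, 18.9% to 29.8%) and 81 of 290 (27.9%, 23.1% to 33.4%), and shared arm sites at 8 of 29 (27.6%, 14.7% to 45.7%) and 9 of 30 (30.0%, 16.7% to 47.9%). The intervals of the 3 locations overlapped once the sites were shared. Of the unshared DAXX sites at 8q24, 229 of 259 (88.4%) were lost. A site in both single knockdowns had been called in 2 separate sets of 4 libraries, and whether such sites were also the stronger ones cannot be seen in lists without scores.

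**Figure D3:**
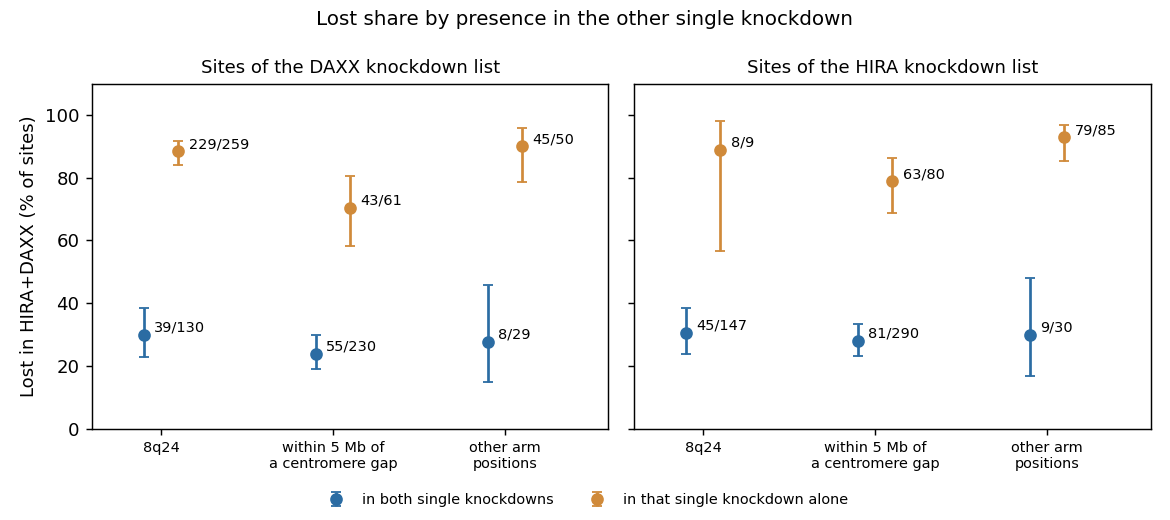
Lost share in HIRA+DAXX, in % of sites, for sites in both single knockdowns and for sites in 1 of them alone, by location. Points are shares with the number lost over the number of sites, and bars are 95% Wilson intervals. Shared sites lie between 23.9% and 30.6% in all 3 locations, and unshared sites between 70.5% and 92.9%.

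Presence in control cells sorted the sites further. Of sites in both single knockdowns and in control, 19 of 192 DAXX sites (9.90%) and 30 of 236 HIRA sites (12.7%) were lost. Without a control peak, 83 of 197 shared DAXX sites (42.1%) and 105 of 231 shared HIRA sites (45.5%) were lost. Sites in a single list and in neither of the other 2 were lost at 314 of 362 (86.7%) for DAXX and 136 of 158 (86.1%) for HIRA. Most single knockdown sites that touched a control peak thus also touched a double knockdown peak, although 37.9% of the bases of such DAXX sites and 47.0% of the bases of such HIRA sites were retained. Sites in control were also wider, with a median of 1512 bp against 803 bp for the DAXX sites outside control, and the part of width in the difference was not tested. Width and sharing were looked at together for the single knockdowns alone. Of DAXX sites up to 1000 bp, 55 of 168 shared sites (32.7%) and 218 of 245 unshared ones (89.0%) were lost, and over 1000 bp, 47 of 221 (21.3%) and 99 of 125 (79.2%) were.

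Near the centromeres the DNA of a site went with its fate. This property was chosen after values of the sites had been seen, and it is given as a description. A site was called GGAAT-rich when it held at least 40 copies per kb of GGAAT or its reverse complement ATTCC, so that both strands were counted. The 2 can overlap by 2 letters, and each was then counted. Windows of 300 bp at this density make up 0.0390% of all windows of the reference (3714 of 9528558). The centres of the widest GGAAT-rich split and kept sites, both DAXX sites of chromosome 21, are shown with the same use of capitals.
GGAAT-rich split site, centre (chr21:10849603-10849902): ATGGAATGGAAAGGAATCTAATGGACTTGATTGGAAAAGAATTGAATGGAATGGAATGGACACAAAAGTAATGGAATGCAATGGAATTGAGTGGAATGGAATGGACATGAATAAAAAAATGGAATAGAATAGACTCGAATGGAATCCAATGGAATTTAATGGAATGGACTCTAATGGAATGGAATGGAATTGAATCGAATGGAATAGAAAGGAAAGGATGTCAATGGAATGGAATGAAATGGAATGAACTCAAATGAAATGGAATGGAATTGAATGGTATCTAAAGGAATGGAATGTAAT
GGAAT-rich kept site, centre (chr21:10795843-10796142): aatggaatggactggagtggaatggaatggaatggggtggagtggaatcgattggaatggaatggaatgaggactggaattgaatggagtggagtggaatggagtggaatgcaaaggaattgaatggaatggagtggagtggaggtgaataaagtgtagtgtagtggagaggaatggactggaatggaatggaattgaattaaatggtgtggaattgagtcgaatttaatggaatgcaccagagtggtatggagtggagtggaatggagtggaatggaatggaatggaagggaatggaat
The split site of 14382 bp was left in 18 pieces that covered 50.5% of it, and its central window lay wholly in a double knockdown peak and held 23 copies of the pentamer. The kept site, of 4435 bp, retained 289 bp (6.52%), and its central window, with 25 copies, lay outside the retained piece. In these windows the pentamer was dense both inside and outside retained bases, and its density inside and outside them was not measured over the other sites.

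Of the GGAAT-rich sites within 5 Mb of a centromere gap, 14 of 99 DAXX sites (14.1%, 8.61% to 22.3%) and 16 of 115 HIRA sites (13.9%, 8.75% to 21.4%) were lost. Sites with the period of alpha satellite, which were not GGAAT-rich and matched themselves at a shift of 1 unit at 40% or more of their bases (the classes of 8q24 sites had medians of 27.2% to 27.7%), were lost at 15 of 58 (25.9%, 16.3% to 38.4%) for DAXX and 35 of 89 (39.3%, 29.8% to 49.7%) for HIRA. The remaining pericentromeric sites were lost at 69 of 134 (51.5%, 43.1% to 59.8%) and 93 of 166 (56.0%, 48.4% to 63.4%). Sites shorter than 342 bp had no self match value, so those not GGAAT-rich fell into this remainder whether or not they held alpha satellite. Of the lost pericentromeric sites, 74 of 98 for DAXX and 122 of 144 for HIRA had a value. Of the kept ones, 96 of 120 and 113 of 151 did, and all split ones did. GGAAT-rich sites also kept more of their bases, 49.2% in DAXX and 54.1% in HIRA, against 25.3% and 33.4% of sites with the alpha satellite period and 21.3% and 24.8% of the others. The order was the same among sites present in both single knockdowns, where 6 of 84, 13 of 53 and 36 of 93 DAXX sites were lost, and 9 of 100, 31 of 85 and 41 of 105 HIRA sites. The order was the same in HIRA+HJURP, the other double knockdown, where 9.09%, 20.7% and 32.8% of the DAXX sites and 15.7%, 28.1% and 41.6% of the HIRA sites had no peak. Control cells gave a different order, since 48 of the 99 GGAAT-rich DAXX sites (48.5%) had no control peak, against 11 of 58 with the alpha satellite period. HJURP knockdown did so too, with 26.3% against 17.2%. So did the other single knockdown, where 15.2% of GGAAT-rich DAXX sites had no HIRA peak, against 8.62% with the alpha satellite period. For HIRA sites without a DAXX peak the shares were 13.0% against 4.49%. The low lost share of GGAAT-rich sites was therefore not particular to HIRA+DAXX. GGAAT-rich sites lay mainly on chromosomes 2, 7, 10, 16 and 21 and none lay in 8q24. The authors kept reads with a mapping quality of 10 or more, and how well reads of either satellite could be placed was not tested.

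**Figure D4:**
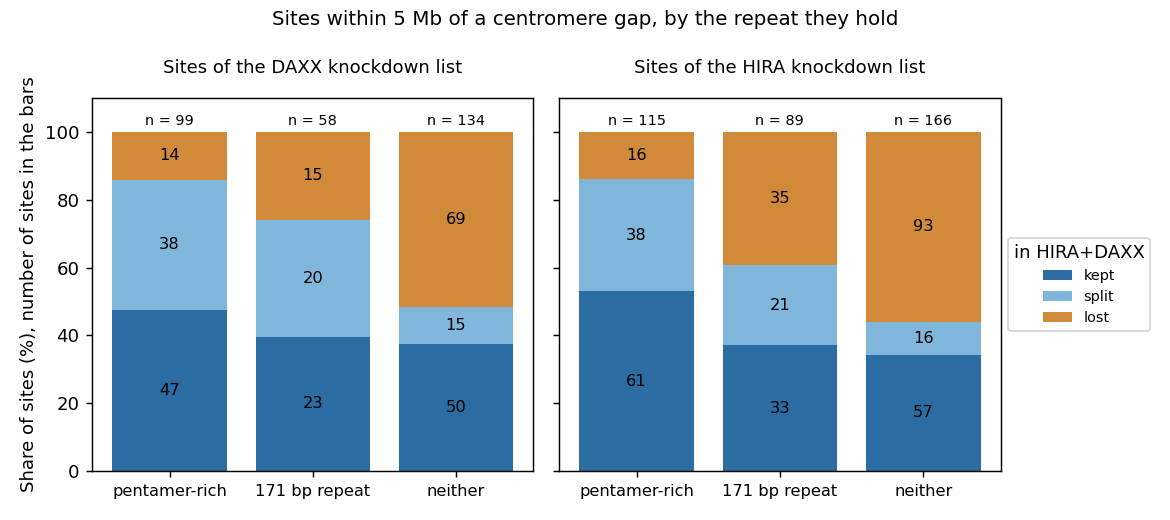
Kept, split and lost shares, in % of sites, of the pericentromeric sites of each single knockdown list by the repeat they hold, with the number of sites in each bar. Pentamer-rich sites hold at least 40 copies per kb of the satellite II and III pentamer, and the middle bars are sites with the alpha satellite period. The lost share of pentamer-rich sites is 14.1% for DAXX and 13.9% for HIRA, against 51.5% and 56.0% for the remaining sites. These are labelled neither and include sites shorter than 342 bp, in which the alpha satellite period was not measured.

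Other sequence measures separated the classes less. The CENP-B box, the motif of alpha satellite that the centromere protein CENP-B binds, was searched on both strands as TTCG, then any 4 bases, an A, any 2 bases and CGGG. It was found in the central 300 bp of 11 of 120 kept (9.17%), 2 of 73 split (2.74%) and 11 of 98 lost (11.2%) pericentromeric DAXX sites, and in 0.0192% of all windows of the reference. Among HIRA sites it was found in 12 of 151 kept (7.95%), 2 of 75 split (2.67%) and 15 of 144 lost (10.4%). Median GC content of the pericentromeric classes lay within 1 percentage point of each other in both lists.

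The named pericentromeric sites were the 3 widest of each class in each list. On chromosome 16 the widest lost DAXX site (chr16:32543593-32562295, 2724 kb from the centromere gap, in no annotated gene) was also in HIRA, as 2 lost sites of 9596 bp and 2962 bp, and in control. The nearest double knockdown peak was 255 kb away, and the HIRA+HJURP list had none there either. Another lost DAXX site of 14977 bp on the same chromosome (chr16:34003271-34018247) lay 3.25 kb from a double knockdown peak and was present in HIRA, in control and in HIRA+HJURP. Its neighbour of 3474 bp (chr16:33997803-34001276) was lost as well, and the next site, of 5628 bp (chr16:33991730-33997357), kept 1 piece of 281 bp. All 3 were alpha satellite by period, with a self match of 65.9%, 54.1% and 66.2%. On chromosome 21, 7 of 50 ectopic DAXX sites were kept, 23 split and 20 lost, with 35.5% of their bases retained. A site of 21864 bp there (chr21:10708892-10730755, self match 52.6%) was left in 13 pieces over 57.9% of its bases, the longest of them 3022 bp. On chromosome 7, the widest DAXX site (chr7:61867627-61898284, 813 kb from the gap) retained 6.62% in 7 pieces of 136 to 502 bp, and the site of 14400 bp beside it (chr7:61902661-61917060) retained 27.5% in 10 pieces. Wide alpha satellite sites thus had all 3 fates. Another of the widest lost HIRA sites, of 2162 bp on chromosome 15 (chr15:20865291-20867452), lay 7.88 kb from the nearest double knockdown peak and was in DAXX and not in control.

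At 8q24 most of the genes with many site bases were long noncoding RNA genes. PCAT1, a prostate cancer associated transcript, spans chr8:127568568-128431295 and held 195 DAXX sites, of which 34 were kept, 33 split and 128 lost. The same gene held 69 HIRA sites, of which 29 were kept, 21 split and 19 lost, and 60.3 kb of 274.6 kb of its DAXX bases and 50.3 kb of 107.8 kb of its HIRA bases were retained. CASC19, which lies within that span, lost 37 of 57 DAXX sites and 4 of 19 HIRA sites. CASC8 lost 30 of 40 DAXX sites and 4 of 9 HIRA sites. POU5F1B, a retrogene copy of the pluripotency factor gene POU5F1 whose annotated span overlaps CASC8, lost 23 of 31 and 2 of 4. Nearer the centromeric end of the cluster, LINC00861 lost 27 of 48 DAXX and 13 of 34 HIRA sites, and LINC02964 lost 32 of 43 and 12 of 22. Beyond MYC, LINC00824 lost 20 of 23 DAXX sites and 1 of 4 HIRA sites, and ENSG00000286034 lost 7 of 14 and none of 5. In each of these 8 genes the lost share was lower for HIRA than for DAXX sites, and both were sorted by the same double knockdown peaks. The genes are not separate counts. PCAT1 overlaps CASC19, CASC8 and POU5F1B, and LINC00861 overlaps LINC02964, so the same site could be counted in several genes. PRNCR1, a noncoding RNA gene within the span of CASC19, lost 3 of 7 DAXX sites and 1 of 3 HIRA sites, and its DAXX sites retained 41.4% of their bases.

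MYC itself held no site in either list, and the nearest site lay 69.7 kb away in DAXX and 373 kb away in HIRA. PVT1, the noncoding RNA gene next to MYC, held 7 DAXX sites, of which 6 were lost and 1 split, and 2 HIRA sites, which were both kept. In the 500 kb window from 128.5 to 129.0 Mb, which holds MYC, all 8 DAXX sites were lost and the double knockdown had no peak. HIRA had no site in this window. In the window before it, from 128.0 to 128.5 Mb, 100 of 153 DAXX sites (65.4%) and 15 of 55 HIRA sites (27.3%) were lost, and that window held 53.9 kb of the double knockdown's 106.2 kb at 8q24. The best covered of the named split sites lay there, in an intron of PCAT1 (chr8:128037735-128047326 in DAXX, 9592 bp), where 7 pieces covered 89.2% of the DAXX site and 89.5% of the matching HIRA site. A HIRA site of 2752 bp (chr8:128015863-128018614), in an intron of the same gene, was 98.5% covered by 1 peak. At the other extreme, the widest lost DAXX site at 8q24, of 4100 bp (chr8:129346030-129350129), overlapped an exon of ENSG00000286034, was absent from HIRA and from control, and lay 3.59 kb from the nearest double knockdown peak. Kept sites there could also be thin: of a HIRA site of 4045 bp in an intron of LINC00824 (chr8:129566471-129570515), 124 bp remained.

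**Figure D5:**
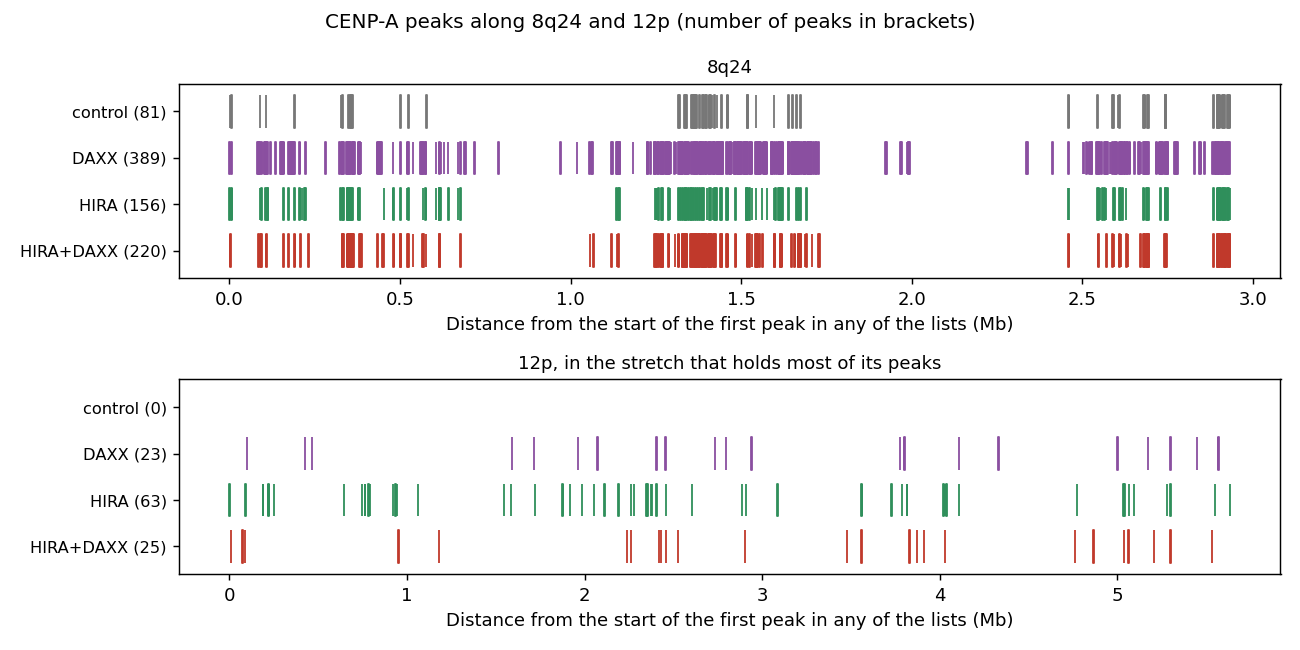
Positions of the peaks of 4 lists along 8q24 and along the stretch of 12p that holds most of its peaks, as distance in Mb from the first peak, with the number of peaks in brackets. At 8q24 the 220 HIRA+DAXX peaks fall in the same clusters as the 389 DAXX and 156 HIRA peaks and leave the sparse stretches between them empty, and on 12p control has 0 peaks and the others 23, 63 and 25.

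Of the other arm sites, 64 of 115 in HIRA and 24 of 79 in DAXX lay on 12p, a group chosen after the values were seen. All but 1 of 24 DAXX sites (95.8%) and all but 2 of 64 HIRA sites (96.9%) on 12p were lost, and control cells had no peak on this arm. The double knockdown did have peaks there, 26 of them with a median width of 212 bp and 5.9 kb in all, but they lay elsewhere, at a median distance of 78.0 kb from the lost DAXX sites and 65.8 kb from the lost HIRA sites. The 12p positions differed between the single knockdowns as well. Only 4 of the 24 DAXX sites shared a base with HIRA sites, 5 of the 64 HIRA sites with HIRA+HJURP and 12 with HJURP. SOX5, the gene of a transcription factor of the SOX family, held 16 HIRA sites and 6 DAXX sites, all of them lost, and also 6 double knockdown peaks at other positions. ITPR2, the gene of an inositol trisphosphate receptor, held 6 HIRA sites and C2CD5 held 7, and these were all lost. Without 12p, 30 of 55 DAXX arm sites (54.5%) and 26 of 51 HIRA arm sites (51.0%) were lost, near the background of 55.2% and 44.5%.

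A few arm sites, also chosen after their values were seen, lay over exons of protein-coding genes, and several of these were single isolated HIRA sites. EGR1, an immediate early transcription factor gene, had a HIRA site of 2036 bp (chr5:137803682-137805717), and H3-3B, which encodes the H3.3 histone that HIRA and DAXX escort, had one of 573 bp (chr17:73775734-73776306). Both were in control, absent from DAXX and lost in the double knockdown, where the nearest peak of the same chromosome was 3543 kb and 28562 kb away. HIRA sites over exons of the ribosomal protein gene RPS12 (319 bp), the transcription elongation regulator gene HEXIM1 (218 bp) and VMP1 (681 bp), a gene of autophagy, were in neither DAXX nor control and were lost. Other lost exon sites were less isolated. DAXX and HIRA sites over exons of ZNF717 lay 17.0 to 23.7 kb from a double knockdown peak, and a DAXX site over an exon of CDC27 lay 0.438 kb from one. Over all arm sites outside 12p, 54.5% of DAXX and 51.0% of HIRA sites were lost. At the end of 4q, in contrast, a site over an exon of FRG1-DT (chr4:190840933-190841181 in DAXX) was kept from both lists and absent from control. In an intron of DHX32, an RNA helicase gene of chromosome 10, the site chr10:127574873-127575762 was kept from both lists, with 63.1% of the DAXX site and 71.1% of the HIRA site covered. Other DAXX sites in this gene were kept or split, but its neighbour chr10:127575861-127577377 and the site chr10:127581029-127581762 were lost. The HIRA sites in the gene were all kept or split. PRIM2, a DNA primase subunit gene next to the centromere of chromosome 6, held 10 HIRA sites and 1 DAXX site, which were pericentromeric and not arm sites. All were lost, and the gene also held 2 double knockdown peaks at other positions. Neither the HIRA gene nor the DAXX gene held a site in either list.

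The same sort was run against lists other than HIRA+DAXX to show what it gives. DAXX sites were lost at 370 of 759 (48.7%) in the HIRA list, 559 (73.6%) in control and 209 (27.5%) in HIRA+HJURP, the other double knockdown with 2 ChIP libraries. HIRA sites were lost at 174 of 641 (27.1%) in the DAXX list, 389 (60.7%) in control and 209 (32.6%) in HIRA+HJURP. Against HIRA+HJURP, 28.2% of DAXX sites and 21.5% of HIRA sites were split, and against the control list and the other single knockdown's list, each of 4 libraries, 3.12% to 8.43% were. Loss was less common in HIRA+HJURP than in HIRA+DAXX, with 1205 and 759 ectopic peaks. Of the DAXX sites, 232 were lost in HIRA+DAXX alone, 22 in HIRA+HJURP alone and 187 in both. Of the 232, 176 lay in 8q24. For HIRA sites the numbers were 110, 34 and 175. On 12p, 22 of 24 DAXX sites and 57 of 64 HIRA sites were lost in both double knockdowns. The HIRA siRNA is common to the HIRA, HIRA+DAXX and HIRA+HJURP lists, and each list was called separately.

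Seen from the double knockdown, 548 of its 759 ectopic peaks (72.2%) shared bases with both single knockdowns, 85 (11.2%) with DAXX alone, 25 (3.29%) with HIRA alone and 101 (13.3%) with neither. The peaks in neither single list were narrow, with a median of 182 bp, and 24 of them lay on chromosome 12. Of these peaks, 4 shared bases with control and 43 with HIRA+HJURP. Peaks in both single lists had a median of 329.5 bp, and 355 of the 548 (64.8%) were in control.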

How the data were processed

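CENP-A ChIP-Seq of SW480 cells was analysed from the 6 deposited peak lists, 1 per condition. Per the labels and the methods of the study, the authors used Trimmomatic for trimming, Bowtie2 (version 2.2.6 in the submitters' processing notes) for alignment to hg19 and MACS, with the matched input, for peak calls on reads of mapping quality 10 or more. Replicates were merged, keeping merged peaks that overlapped at least 3 replicates. The rule for the conditions with 2 replicates is not given in the sources used here. The deposited values are start and end positions, with no score, count or replicate. Read depths per replicate are stated in the study but were not used here, since merged lists cannot be scaled by them, and the 95% Wilson intervals cover the counting of sites only.

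Ectopic sites shared no base with a centromere band. The positions of the bands and of 8q24 were written from general knowledge of the hg19 band table. Sites were sorted by base overlap with all deposited HIRA+DAXX peaks in Python 3.11.15 with numpy 2.4.6 and scipy 1.17.1. The code was tested on 200 simulated pairs of lists, all sorted exactly, and bedtools 2.31.1 gave the same number of overlapping peaks for all 952 DAXX and 848 HIRA sites. Genes are protein-coding and lncRNA genes of GENCODE release 44 lifted to GRCh37, and sequence was read with pysam 0.24.0. The assembly does not mark repeats, so the share of marked repeats was not used, and CCAT1 is not in the annotation by that symbol. Figures were drawn with matplotlib 3.10.9.

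The members, lists and rules were chosen with earlier results of these data known. The sites named were the 3 widest of each class outside 8q24 and the 2 widest in it per single knockdown, and the 3 widest sites of both single knockdowns that were lost. The genes named were MYC, PVT1, CASC8, PCAT1, POU5F1B, HIRA, DAXX and the 10 with the most site bases in either list. ENSG00000290597, which overlaps PRIM2 and is among these, held the same 10 lost HIRA sites. The sequences were those of the widest kept, split and lost sites outside chromosome 8. The retained piece, the GGAAT count, 12p, the arm sites in exons and the DHX32 sites were added after values had been seen. No comparison was tested, since each condition is 1 list.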

Additional observations from a re-analysis of the deposited data

How the results depend on the processing

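The shares depended on what counted as kept. When a site needed 50% of its bases in double knockdown peaks, the kept, split and lost shares were 9.88%, 8.04% and 82.1% of DAXX sites and 18.1%, 11.9% and 70.0% of HIRA sites, with 13.0% and 24.9% of all bases retained. With double knockdown peaks within 1000 bp joined, kept and split shares were 41.8% and 3.29% for DAXX and 54.9% and 1.25% for HIRA, and retained bases rose to 32.6% and 47.7%. Lost shares stayed at 54.9% and 43.8%. With those peaks extended by 500 bp, kept, split and lost shares were 44.8%, 4.87% and 50.3% for DAXX and 57.6%, 3.12% and 39.3% for HIRA, with 49.0% and 64.1% of bases retained. Among sites of at least 500 bp, split and lost shares were 23.4% and 51.3% for DAXX and 28.2% and 37.8% for HIRA. Without chromosome 8, the DAXX shares were 37.3%, 21.9% and 40.8% with 29.9% of bases retained, below the HIRA lost share of 47.8%, so the higher lost share of DAXX sites rested on 8q24. Assembly gaps in place of centromere bands gave a kept share of 30.3% for DAXX. With single knockdown peaks within 10000 bp joined, an alternative chosen after seeing the data, kept and split shares were 20.8% and 32.1% for DAXX and 19.8% and 32.3% for HIRA, the DAXX lost share was 47.0%, and 13.8% and 17.7% of bases were retained. The other 26 values of these shares, the ones with all deposited peaks among them, stayed within the interval of the reported share. For retained bases that interval treated the share of bases as if it were a share of sites, so it is not an error of that share. When 50% of bases were required, the lost share at 8q24 was 92.3% for DAXX and 71.2% for HIRA, the latter above the share of all HIRA sites, and the pericentromeric share was 67.7% and 65.1%. With single knockdown peaks joined, the share at 8q24 was 43.2% for DAXX, below that of all DAXX sites, and 15.0% for HIRA. Pericentromeric sites stayed below and arm sites above the share of all sites in both lists under each alternative. Sites in both single knockdowns had the lower lost share under each of these alternatives, with 68.9% against 95.9% for DAXX and 61.9% against 92.0% for HIRA when 50% of bases were required. A GGAAT threshold of 20 or 60 copies per kb, also chosen after seeing the data, gave lost shares of 14.6% and 15.1% for DAXX and 15.3% and 16.9% for HIRA.

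No paired analysis was possible because each condition is 1 merged list that keeps no replicate apart. Leaving out a replicate and a stricter peak score were not run, because the lists hold neither replicates nor scores. The lists give no replicate error and no depth per site, and a lost site is one without a called peak, not one shown to lack CENP-A.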
